A study of Mus musculus with 8 samples.

Results

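Heat shock protein genes, chaperonin subunit genes and J-domain genes were followed in RNA of adult mouse testis. They are the table rows whose symbol begins with Hspa, Hspb, Hspd, Hspe, Hsph, Hsp90, Dnaja, Dnajb, Dnajc or Cct2 to Cct8 and a family number; Hspb11 and symbols with -ps were left out. The rule used no measured value and took in 79 of the 24988 genes of the table, and Hspb3, which also bears such a name, was not analysed here. The data were 8 libraries, 4 labelled Kpna2 knockout (genotype Kpna2-/-) and 4 labelled wild type. Kpna2 is a member of the importin alpha family, which bridges cargo proteins and the nuclear import receptor, and the series sets the libraries labelled knockout for it against those labelled wild type. The labels state neither strain, exact age nor deleted stretch, nor that each library is a separate animal, so each p-value here describes spread between libraries, which may be technical. Levels are CPM (read counts of each library brought to a common scale), with the SD over 4 libraries after ±. Log2 fold changes put the knockout label over the wild-type label, on log2(CPM + 0.5), a scale that understates changes of low genes.

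Chaperones help proteins to fold and keep them from clumping. Hsp70 proteins (Hspa genes) bind and release unfolded stretches, J-domain proteins (Dnaja, Dnajb and Dnajc genes) bring them clients and start their ATP cycle, and Hsp110 relatives such as Hsph1 and Hspa4l reset them. Hsp90 proteins finish the folding of kinases and receptors, the small heat shock proteins (Hspb genes) hold unfolded proteins without ATP, and the ring chaperonins fold actin and tubulin (Cct genes) or mitochondrial proteins (Hspd1 with Hspe1). Heat shock factors switch many of these genes on through inverted repeats in their promoters. The testis is known for germ cell forms of several of them, such as Hspa2, which male mice need for meiosis.

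Kpna2 itself went against its label. It stood at 15.3, 20.2, 19.4 and 21.7 CPM in the libraries labelled knockout, against 13.97, 15.1, 14.04 and 12.4 CPM in those labelled wild type. No library of one label reached the range of the other, and the log2 fold change was 0.44 (SE 0.10; limma adjusted p = 0.0079), so every direction here is that of the labels. Which exons these reads came from is not visible in a gene-level table. Depth was 31133443 to 37797812 reads per library. Spermatid genes marked the tissue as testis, with 26118 to 33050 CPM summed over 10 genes of elongating spermatids under the knockout label and 29164 to 30618 CPM under the wild-type label. Of the somatic marker lists, 5 of 7 peritubular myoid, 4 of 9 Leydig, 2 of 13 Sertoli, 2 of 7 endothelial and 1 of 9 macrophage genes were lower by limma at an adjusted p under 0.05 (8.32% of all tested genes were), and 1 Leydig gene was higher.

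Promoter stretches come from RefSeq on GRCm38.p6, in windows of 250 bases before to 50 after each start. Windows matched 64 of the 79 members by symbol. Among those without a window were the heat-responsive members Hspa8 and Hsp90aa1, and Dnajc2. The windows were searched for the paired repeat of the heat shock element, GAANNTTC or TTCNNGAA. Each form reads the same on both strands. Capitals mark the matched triplets. Hspa1b and Hspa1a are neighbouring copies of the inducible Hsp70 gene, and the 250 bases before their starts are shown because the copies gave different results.
Hspa1b, chr17:34959239-34959488, minus strand: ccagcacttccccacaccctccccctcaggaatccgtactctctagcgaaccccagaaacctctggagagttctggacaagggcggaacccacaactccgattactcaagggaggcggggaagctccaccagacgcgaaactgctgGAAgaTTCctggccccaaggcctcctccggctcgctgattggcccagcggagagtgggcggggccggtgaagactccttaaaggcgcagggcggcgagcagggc
Hspa1a, chr17:34972157-34972406, minus strand: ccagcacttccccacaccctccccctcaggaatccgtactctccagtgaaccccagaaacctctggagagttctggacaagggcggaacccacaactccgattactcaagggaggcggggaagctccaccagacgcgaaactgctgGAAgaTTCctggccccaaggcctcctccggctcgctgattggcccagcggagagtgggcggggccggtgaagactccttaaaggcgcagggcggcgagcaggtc
The stretches differ at 3 of 250 bases (98.8% identical), and in both the pair stands at the same place.

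Windows of 30 bases around the pair follow for the other members that fell (adjusted p under 0.05) and hold one, and for Bag3, the partner of Hspb8. The last line is Hspe1, the mitochondrial co-chaperonin, where 4 triplets follow each other in turn, 2 bases apart, and so hold overlapping pairs and triples.
Hspb8, chr5:116422844-116422873, minus strand: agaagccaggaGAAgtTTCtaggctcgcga
Hspb6, chr7:30553170-30553199, plus strand: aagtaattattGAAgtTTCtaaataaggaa
Dnajc5g, chr5:31108339-31108368, plus strand: ccagaggcaatatGAAagTTCacgtctacc
Cct8l1, chr5:25515920-25515949, plus strand: gaagtgtttctGAAttTTCaacagtaaagt
Bag3, chr7:128523603-128523632, plus strand: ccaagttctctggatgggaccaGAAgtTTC
Hspe1, chr1:55088051-55088080, plus strand: acggtccgTTCtaGAAccTTCcgGAAggcc
A pair was found for 19 of 64 members with a window (29.7%), against 4587 of 27025 genes (17.0%). The triple, a pair with 1 more inverted triplet 2 bases on, was found for 4 members (6.25%), namely Dnajb6, Hspd1, Hspe1 and Hsph1, against 0.662% of genes. The triples of Hspd1 and Hspe1 lie in the same stretch of chr1, read on opposite strands, so they are not separate sites. A match describes letters in the window, not a site in use.

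Compared per kilobase of exon (GENCODE M21 lengths), germ cell forms held the highest levels. Hspb9, a small heat shock protein gene of testis, stood at 827 ± 89.6 CPM per kb in the libraries labelled knockout and 849.7 ± 33.4 CPM per kb in those labelled wild type. Dnajb3, a J-domain gene of male germ cells, stood at 775 ± 66.98 CPM per kb under the knockout label and 736 ± 18.6 CPM per kb under the wild-type label, within the spread of Hspb9 in the first of these groups. Hspa2 followed, with 429.6 ± 19.8 CPM per kb and 403 ± 10.04 CPM per kb in the same order. Hsp90aa1, the inducible Hsp90 that mouse spermatocytes need, had 189.7 ± 6.92 CPM per kb under the knockout label and 199.6 ± 10.7 CPM per kb under the wild-type label. Among the lowest was Hspb2, at 0.387 ± 0.162 and 0.362 ± 0.111 CPM per kb, from 6 to 17 reads per library. The inducible Hsp70 genes were low too: Hspa1a had 2.17 ± 0.195 CPM per kb under the knockout label and 2.08 ± 0.238 CPM per kb under the wild-type label, and Hspa1b 0.999 ± 0.0961 and 1.42 ± 0.119 CPM per kb.

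**Figure D1:**
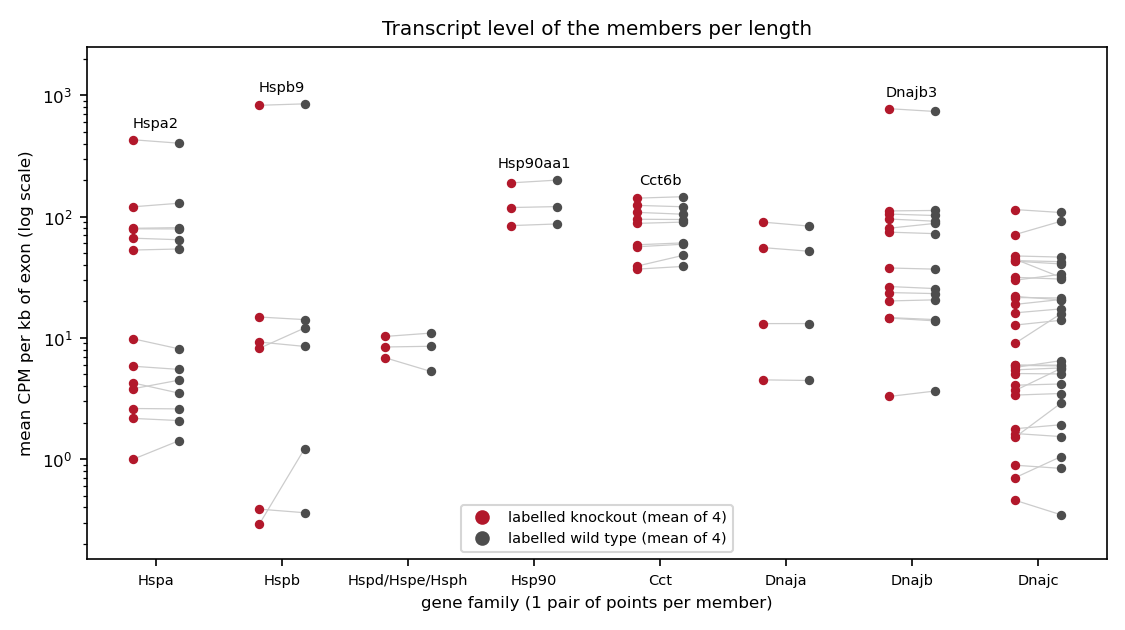
Mean CPM per kilobase of exon (log axis) of all 79 members by family, each as a point for the 4 libraries labelled knockout (red, left) joined to one for the 4 labelled wild type (grey, right). Hspb9 and Dnajb3 lie at the top of the plot, and Hspb8 has the steepest line, with 0.2902 ± 0.0644 CPM per kb under the knockout label and 1.22 ± 0.185 under the wild-type label.

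Most members kept within the spread between libraries. Of the 79, 78 passed the filter of a mean of at least 0.5 CPM, the exception being Hspb2. Limma called 10 of the 78 at an adjusted p under 0.05 (12.8%), where the background over all 22027 tested genes was 16.9%. Higher under the knockout label were 2 members (2.56%, background 8.62%), Dnajc2 and Hspa12a. Lower were 8 members (10.3%, background 8.32%), namely Hspb8, Hspb6, Hspa1b, Cct8l1, Dnajc25, Dnajc28, Dnajc17 and Dnajc5g. These shares do not set the members apart from other genes. The median log2 fold change of the 78 was 0.00036, against -0.01 over all tested genes, with 40 members above 0 and 38 below. The groups did not overlap for 13 members (16.7%, background 20.9%). Just outside the threshold lay Hspa14, Hspe1 and Dnajc22, with limma adjusted p of 0.063, 0.073 and 0.077.

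The calls lay mostly among members of lower level. Of 37 members with a mean of at least 100 CPM, limma called 2 (5.41%, background 13.2% of 2392 genes of that level), Dnajc2 and Dnajc5g. Of 41 tested members under 100 CPM it called 8 (19.5%, background 17.4% of 19635 genes). By family, calls came to 5 of 28 Dnajc, 2 of 5 tested Hspb, 2 of 13 Hspa and 1 of 9 Cct genes. The 13 Dnajb, 4 Dnaja and 3 Hsp90 genes and Hspd1, Hspe1 and Hsph1 held no call by limma, edgeR or DESeq2. EdgeR and DESeq2 each called the same 10 members (background 16.8% and 18%).

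**Figure D2:**
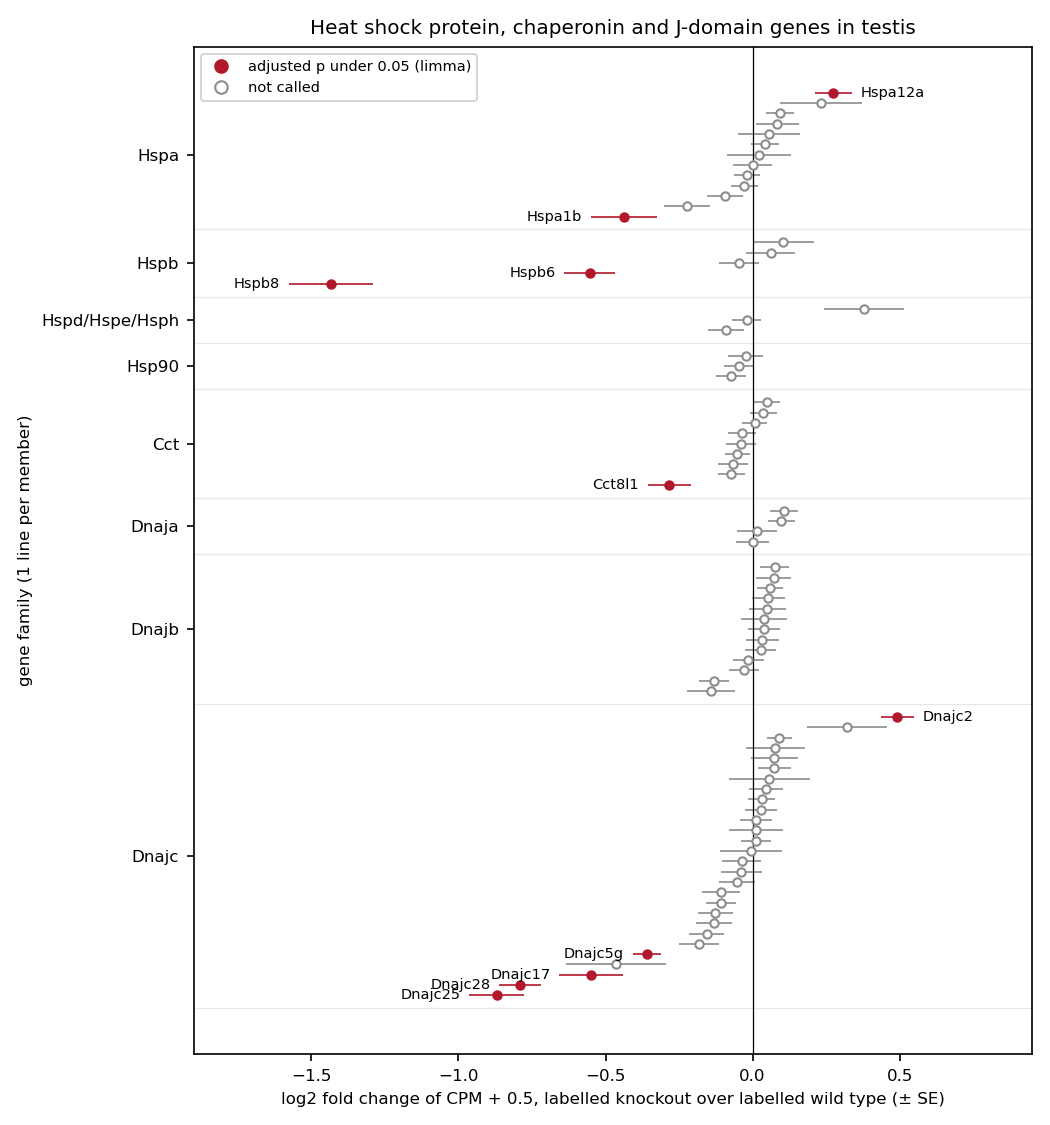
Log2 fold change of CPM + 0.5 with its SE for each of the 78 tested members by family, labelled knockout over labelled wild type; filled red points passed an adjusted p of 0.05 in limma and open points did not. Dnajc2 and Hspa12a are the red points right of 0, and the other 8 lie left of it, with Hspb8 farthest out at -1.43.

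The Hsp70 genes that dominate the testis did not pass the test. Hspa2 had 1172, 1059.9, 1168 and 1144 CPM under the knockout label and 1102, 1046, 1068 and 1046 CPM under the wild-type label, with a log2 fold change of 0.09 (SE 0.05; limma adjusted p = 0.22). The groups overlapped. Hspa4l, the Hsp110 relative whose loss impairs fertility in male mice, averaged 944 ± 32.3 CPM in libraries labelled knockout and 955 ± 14.9 CPM in those labelled wild type (limma adjusted p = 0.82). Hspa1l, the Hsp70 of spermatids, averaged 196 ± 18.6 and 195 ± 12.4 CPM in the same order (limma adjusted p = 0.999). Hspa5, the Hsp70 of the endoplasmic reticulum, averaged 509 ± 25.5 CPM with the knockout label and 544 ± 46.5 CPM with the wild-type label (limma adjusted p = 0.33).

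Hspa12a, a distant Hsp70 relative (ENSMUSG00000025092), was the Hsp70 family gene that rose. It stood at 40.2, 37.9, 38.9 and 39.2 CPM in the libraries labelled knockout, against 35.8, 32.3, 30.4 and 30.6 CPM in those labelled wild type. The groups did not overlap, and the log2 fold change was 0.28 (SE 0.06; limma adjusted p = 0.0077). In GENCODE M21 on GRCm38, Hspa12a (chromosome 19, 58795750 to 58943654) overlaps Eno4, an enolase gene of sperm on the opposite strand, by 230 bases. Eno4 was also higher, at 67.8 ± 3.09 CPM under the knockout label and 48.7 ± 2.84 CPM under the wild-type label (log2 fold change 0.47; limma adjusted p = 6.6e-05). The sources used here do not give the strand setting of the counting, so reads of that overlap cannot be told apart.

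Hspa1b (ENSMUSG00000090877), one of the inducible Hsp70 copies, fell. It had 2.45, 2.95, 3.07 and 2.74 CPM under the knockout label and 4.18, 4.07, 3.47 and 4.14 CPM under the wild-type label, from 84 to 158 reads per library. The groups did not overlap, and the log2 fold change was -0.44 (SE 0.11; limma adjusted p = 0.016). Its copy Hspa1a had 6.60, 5.58, 6.88 and 6.66 CPM in libraries labelled knockout and 5.73, 6.07, 5.70 and 7.21 CPM in libraries labelled wild type, with overlapping groups (log2 fold change 0.06; limma adjusted p = 0.77). Of the 50-base windows of the Hspa1b transcripts, 62.3% also stand in Hspa1a, and the sources used here do not say how reads that fit both were counted.

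Summed, the copies came to 9.05, 8.52, 9.94 and 9.40 CPM in the libraries labelled knockout, against 9.91, 10.1, 9.18 and 11.3 CPM in those labelled wild type. The groups of sums overlapped, and the sum did not pass the test (log2 fold change -0.13, SE 0.09; limma adjusted p = 0.36). Hspa1b made up 30.4% ± 3.17 of the sum under the knockout label and 39.2% ± 2.53 under the wild-type label. The share was looked at after the values of Hspa1b were seen and is given without a test. How reads that fit both copies were assigned was not tested, and the level of the pair was not shown to differ.

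Hspa8 (ENSMUSG00000015656), the constant Hsp70 of the cytosol, spread widely under the knockout label. It had 31.7, 51.4, 33.5 and 52.4 CPM there, against 37.2, 34.9, 34.6 and 33.1 CPM under the wild-type label. Knockout replicates 2 and 4 lay above every library labelled wild type, replicate 1 below all of them and replicate 3 among them (log2 fold change 0.23, SE 0.14; limma adjusted p = 0.28). Its processed copy Gm15459, which holds 34.6% of the Hspa8 windows, was counted higher in CPM than Hspa8 itself, at 119, 109, 113 and 82.7 CPM with the knockout label and 139, 129, 139 and 131 CPM with the wild-type label. Gm15459 fell (log2 fold change -0.35; limma adjusted p = 0.015). With Gm15459 and Gm8355 added, Hspa8 came to 165 ± 11.7 CPM under the knockout label and 186 ± 6.35 CPM under the wild-type label, a log2 fold change of -0.17 (SE 0.05; limma adjusted p = 0.045). Gm15459 made up the larger part of the sum, at 106 ± 16.1 and 135 ± 5.30 CPM in the same order. The lower sum therefore does not show a fall of Hspa8 itself.

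**Figure D3:**
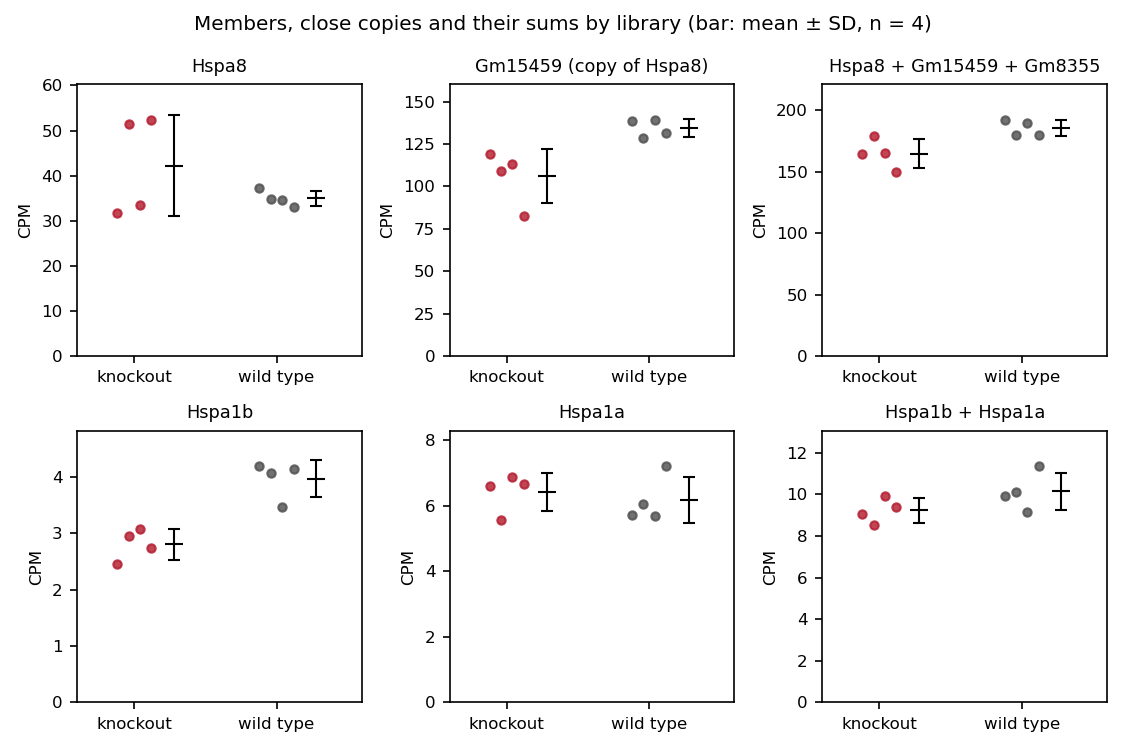
CPM per library of Hspa8, its processed copy Gm15459 and the sum of Hspa8, Gm15459 and Gm8355 (top), and of Hspa1b, Hspa1a and their sum (bottom), with libraries labelled knockout (red) left of those labelled wild type (grey) and bars for mean ± SD (n = 4). Hspa8 has 2 high and 2 low red points, and Hspa1b separates the groups whereas its sum with Hspa1a does not.

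The remaining heat-responsive members gave no call. Of the 10 members named for induction by heat, limma called 1, Hspa1b, beside the background of 16.9% of all tested genes. Hsp90aa1 had 749, 777, 711 and 745 CPM under the knockout label and 764, 792, 840.4 and 743 CPM under the wild-type label, with overlapping groups (log2 fold change -0.07; limma adjusted p = 0.36). Its processed copy Gm12346, which holds 41.8% of its windows, was counted at 745 ± 40.2 and 785 ± 51.9 CPM in the same order. Dnajb1, the main J-domain partner of inducible Hsp70, averaged 357 ± 23.7 CPM in libraries labelled knockout and 359.7 ± 11.01 CPM in libraries labelled wild type (limma adjusted p = 0.89). Hsph1, an Hsp110, averaged 61.1 ± 2.93 and 61.9 ± 0.977 CPM (limma adjusted p = 0.83). Dnaja1, a partner of Hspa8, averaged 38.9 ± 2.95 and 38.4 ± 2.45 CPM (limma adjusted p = 0.91). Hspb1, the Hsp25 of mice, averaged 9.52 ± 1.44 and 8.76 ± 0.565 CPM (limma adjusted p = 0.54). Dnaja1 and Hspb1 also share windows with processed copies, and their sums with these were not called (limma adjusted p = 0.38 and 0.74). Immediate early genes, which handling of tissue can induce, had a list mean (log2 difference from the wild-type mean) of 1.07 in knockout replicate 3, of -0.24 to -0.13 in the 3 other libraries of that label and of -0.12 to 0.25 with the wild-type label. Of 16 tested genes of the list limma called 2, both higher (background 8.62% higher and 16.9% in either direction). Jund averaged 48.9 ± 4.09 CPM under the knockout label and 34.8 ± 3.04 CPM under the wild-type label (limma adjusted p = 4.6e-04). Egr3 averaged 44.1 ± 4.51 and 32.9 ± 1.81 CPM in the same order (limma adjusted p = 0.0015). The part of these genes in the members' values was not tested.

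Neither subunit gene of the mitochondrial chaperonin passed the test. Hspe1, the lid of the chamber, had 10.1, 9.21, 10.8 and 10.3 CPM under the knockout label and 6.82, 10.1, 8.51 and 5.79 CPM under the wild-type label. Wild-type replicate 2 lay among the libraries labelled knockout, and the log2 fold change was 0.38 (SE 0.14; limma adjusted p = 0.073, and 0.016 without that library). Hspd1, the barrel, averaged 27.1 ± 1.68 CPM under the knockout label and 28.9 ± 0.5497 CPM under the wild-type label (log2 fold change -0.09, limma adjusted p = 0.35). Its processed copy Hspd1-ps3, which holds 38.0% of its windows, had 12.3 ± 0.727 and 14.5 ± 0.775 CPM in the same order. The sum of Hspd1 and this copy was not called either (log2 fold change -0.14, limma adjusted p = 0.0996). AC117239.2, a gene annotated as protein-coding, holds 17.9% of the Hspe1 windows. It had 8.70, 10.3, 8.30 and 7.89 CPM under the knockout label and 13.6, 7.97, 10.4 and 15.0 CPM under the wild-type label. Among libraries labelled wild type, AC117239.2 was highest where Hspe1 was lowest and lowest where Hspe1 was highest. Summed with AC117239.2, Hspe1 stood at 18.9 ± 0.575 and 19.5 ± 1.29 CPM (log2 fold change -0.04, limma adjusted p = 0.71). The sum holds all reads of both genes, so its direction is not that of Hspe1 alone. How reads that fit both genes were assigned was not tested, so the values of Hspe1 alone are uncertain too.

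The steepest fall among the members was that of Hspb8, a small heat shock protein gene. Hspb8 (ENSMUSG00000041548), which works with Bag3 to send misfolded proteins to autophagy, had 0.642, 0.629, 0.613 and 0.378 CPM in the libraries labelled knockout, against 1.93, 2.80, 2.32 and 2.46 CPM in those labelled wild type. The groups stood far apart, although the values rest on 13 to 97 reads per library. The mean was 4.21-fold lower, with a log2 fold change of -1.43 (SE 0.14; limma adjusted p = 1.3e-05). Hspb6 (ENSMUSG00000036854), the Hsp20 of smooth muscle, had 18.7, 22.4, 18.1 and 16.2 CPM under the knockout label and 27.7, 28.5, 25.99 and 28.7 CPM under the wild-type label. The groups did not overlap, with a mean 1.47-fold lower and a log2 fold change of -0.55 (SE 0.09; limma adjusted p = 5.7e-04).

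Bag3, from the list of co-chaperones, fell beside them. It stood at 23.6, 22.9, 23.1 and 21.2 CPM in the libraries labelled knockout, against 36.3, 34.9, 39.6 and 37.3 CPM in those labelled wild type, with a log2 fold change of -0.69 (SE 0.06; limma adjusted p = 4.5e-06). Other small heat shock genes gave no call. Hspb7, known from heart muscle, averaged 41.1 ± 5.34 CPM with the knockout label and 39.2 ± 2.23 CPM with the wild-type label (limma adjusted p = 0.66), and Hspb9 averaged 600.1 ± 65.1 and 617 ± 24.2 CPM (limma adjusted p = 0.71).

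Genes of peritubular myoid cells, the smooth-muscle-like cells around the tubules, were lower in the same libraries. Of 7 markers, 5 were lower by limma (Acta2, Myh11, Actg2, Cnn1 and Myl9) and none higher, and their summed level was 323 to 343 CPM under the knockout label and 388 to 458 CPM under the wild-type label. The list mean in log2 was -0.59 in knockout replicate 4, -0.38 to -0.30 in knockout replicates 1 to 3, and -0.15 to 0.11 with the wild-type label. Hspb8 and Hspb6 were also lowest in knockout replicate 4. Other somatic lists moved too: the Sertoli list stood at -0.31 in knockout replicate 4, -0.18 to -0.11 in the 3 others of that label and -0.06 to 0.03 with the wild-type label. The endothelial list stood at -0.40 in knockout replicate 4, -0.13 to 0.01 in the 3 others and -0.17 to 0.16 with the wild-type label. Leydig genes ran from -0.50 to 0.01 with the knockout label, lowest in replicate 1, and from -0.08 to 0.15 with the wild-type label. None of the 7 markers was at 0 in every library. The part of any of these cell types in the fall of Hspb8, Hspb6 and Bag3 was not tested. In whole tissue, fewer cells of a type and less RNA per cell cannot be told apart.

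**Figure D4:**
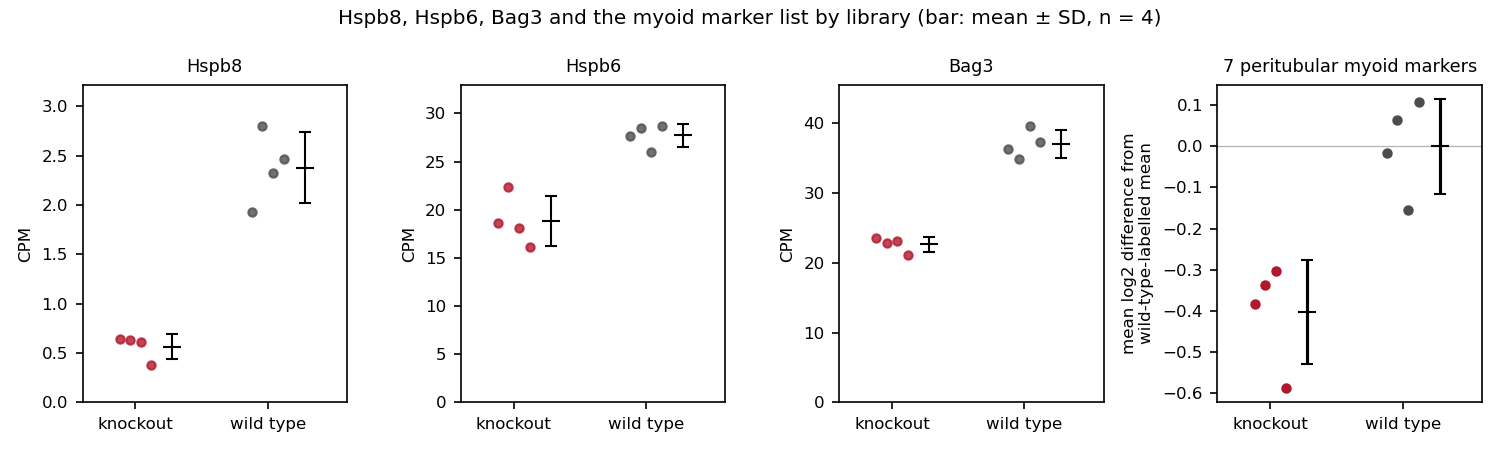
CPM per library of Hspb8, Hspb6 and Bag3, and the mean log2 difference of 7 peritubular myoid markers from the wild-type-labelled mean, with libraries labelled knockout (red) left of those labelled wild type (grey) and bars for mean ± SD (n = 4). In all 4 panels every red point lies below every grey one.

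The Hsp90 genes other than Hsp90aa1 gave no call either. Hsp90ab1, the constant cytosolic form, averaged 253 ± 14.3 CPM in libraries labelled knockout and 261 ± 8.76 CPM in libraries labelled wild type (log2 fold change -0.05; limma adjusted p = 0.59). Hsp90b1, the form of the endoplasmic reticulum, averaged 479 ± 21.7 and 487 ± 41.9 CPM in the same order (limma adjusted p = 0.84).

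The subunits of the actin- and tubulin-folding ring lay close to 0. Cct2, Cct3, Cct4, Cct5, Cct6a, Cct7 and Cct8 had log2 fold changes between -0.07 and 0.05, and none of the 7 was called by limma, edgeR or DESeq2 (smallest limma adjusted p = 0.33). Cct7, the highest of these 7 in CPM, averaged 644 ± 16.6 CPM under the knockout label and 641 ± 12.03 CPM under the wild-type label (limma adjusted p = 0.93). Tcp1, a ring subunit whose name falls outside the rule, averaged 1244 ± 34.8 and 1319 ± 58.1 CPM in the same order. It was not called (log2 fold change -0.08, limma adjusted p = 0.27). Cct3 averaged 373 ± 9.54 and 386 ± 5.02 CPM in the same order, and although its groups did not overlap it did not pass (limma adjusted p = 0.44). Cct6b, the testis form of a ring subunit, averaged 265 ± 14.3 CPM in libraries labelled knockout and 273 ± 10.1 CPM in libraries labelled wild type (limma adjusted p = 0.64).

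Cct8l1 (ENSMUSG00000038044), a gene related in sequence to Cct8, fell. It had 83.8, 73.1, 74.7 and 74.9 CPM in the libraries labelled knockout, against 81.9, 98.6, 89.1 and 105 CPM in those labelled wild type. Knockout replicate 1 lay above wild-type replicate 1, so the groups overlapped. The log2 fold change was -0.28 (SE 0.07; limma adjusted p = 0.017). The call was lost without wild-type replicate 2 (adjusted p = 0.057) and without wild-type replicate 4 (adjusted p = 0.0505, limma), and the adjusted p ran from 0.0034 to 0.065 over 19 alternatives.

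Among the J-domain genes, Dnajc2 rose and 4 other Dnajc genes fell. Dnajc2 (ENSMUSG00000029014), which sits on ribosomes beside Hspa14 and also acts in the nucleus, had 212, 233, 216 and 234 CPM in the libraries labelled knockout, against 151, 163, 172 and 149.6 CPM in those labelled wild type. The groups did not overlap, the mean was 1.41-fold higher, and the log2 fold change was 0.49 (SE 0.06; limma adjusted p = 4.1e-05). Its partner Hspa14 had 16.3, 15.8, 14.7 and 14.99 CPM under the knockout label and 18.2, 16.4, 17.7 and 20.3 CPM under the wild-type label. That gave a log2 fold change of -0.22 (SE 0.08) which missed the threshold (limma adjusted p = 0.063), although the groups did not overlap. Psmc2, a proteasome gene that starts next to Dnajc2 on the opposite strand, averaged 363 ± 9.58 and 349.5 ± 10.4 CPM in the same order and was not called (limma adjusted p = 0.42).

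Dnajc25 and Dnajc28 fell most among the J-domain genes. Dnajc25 (ENSMUSG00000070972) had 7.15, 7.12, 6.88 and 6.46 CPM in the libraries labelled knockout, against 12.6, 11.5, 15.2 and 12.998 CPM in those labelled wild type. Its mean was 1.90-fold lower, and the log2 fold change was -0.87 (SE 0.09; limma adjusted p = 2.2e-05). Neither gene's groups overlapped. Dnajc28 (ENSMUSG00000039763) had 30.3, 31.6, 31.8 and 35.1 CPM under the knockout label and 52.7, 60.7, 60.5 and 50.8 CPM under the wild-type label, 1.74-fold lower on average (log2 fold change -0.79, SE 0.07; limma adjusted p = 5.0e-06). The gene span of Dnajc28 (chromosome 16, 91614254 to 91619026 in GRCm38) overlaps that of Gm15964 on the opposite strand along 4773 bases. No 50-base window of the Dnajc28 transcripts stands in transcripts of another gene on either strand. Gm15964 was at 0.757 ± 0.248 CPM with the knockout label and 0.936 ± 0.117 CPM with the wild-type label.

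Dnajc17 (ENSMUSG00000034278), a J-domain protein with an RNA recognition motif, had 4.52, 4.58, 5.42 and 4.74 CPM under the knockout label and 7.30, 7.94, 6.04 and 7.91 CPM under the wild-type label. The groups did not overlap, and the log2 fold change was -0.55 (SE 0.11; limma adjusted p = 0.0032). Its processed copy Gm6257 holds 13.9% of its windows, and the sum of both was also lower (log2 fold change -0.52; limma adjusted p = 0.0021). The gene span of Gm14137, on the opposite strand, overlaps that of Dnajc17 along 3067 bases, but their transcripts share no 50-base window. Gm14137 averaged 9.75 ± 1.08 and 10.7 ± 0.976 CPM in the same order and was not called (limma adjusted p = 0.38). Dnajc5g (ENSMUSG00000053856), a cysteine string protein gene of testis, had 111, 120.2, 113 and 121 CPM in the libraries labelled knockout, against 144, 155, 150.2 and 148 CPM in those labelled wild type. Again the groups did not overlap, with a log2 fold change of -0.36 (SE 0.05; limma adjusted p = 1.6e-04). The gene span of Slc30a3, on the opposite strand, overlaps that of Dnajc5g along 1953 bases, but their transcripts share no 50-base window. Slc30a3 was not called (limma adjusted p = 0.54). Dnajc5b, a relative of Dnajc5g and also of testis, gave no call, at 144 ± 17.1 CPM with the knockout label and 136 ± 9.64 CPM with the wild-type label (log2 fold change 0.07; limma adjusted p = 0.57).

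**Figure D5:**
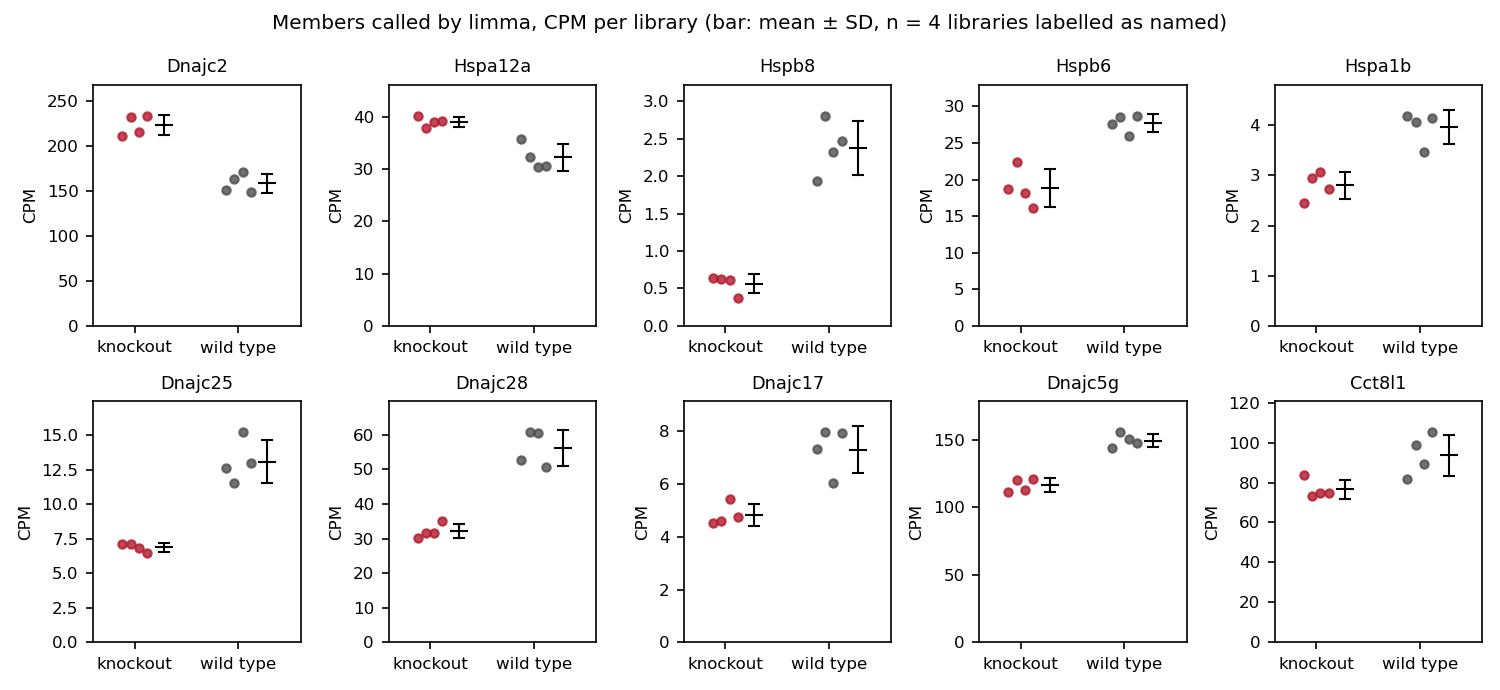
CPM of the 10 members called by limma, 1 point per library, with libraries labelled knockout (red) left of those labelled wild type (grey) and bars for mean ± SD (n = 4). Dnajc2 and Hspa12a lie higher under the knockout label and the other 8 lower, and Cct8l1 is the member whose groups overlap.

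The Dnajb genes of the germ line gave no call. Dnajb3 had 746, 765, 858 and 891 CPM under the knockout label and 779, 758, 798 and 757 CPM under the wild-type label, with overlapping groups (log2 fold change 0.07; limma adjusted p = 0.45). Dnajb13, a part of the radial spokes of the sperm tail, averaged 261 ± 11.4 and 250.1 ± 4.18 CPM in the same order (limma adjusted p = 0.41), and Dnajb7 averaged 144 ± 14.6 and 140.2 ± 13.8 CPM (limma adjusted p = 0.79). Dnajb8 averaged 113 ± 6.47 CPM in libraries labelled knockout and 124 ± 3.92 CPM in libraries labelled wild type (log2 fold change -0.13; limma adjusted p = 0.10). Of the 13 members named for testis or germ cells, limma called 2, Dnajc5g and Cct8l1, both lower, a share near the background of 16.9% of all tested genes.

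General J-domain genes also gave no call. Dnaja4 averaged 323 ± 13.6 CPM with the knockout label and 299.7 ± 11.4 CPM with the wild-type label (log2 fold change 0.11; limma adjusted p = 0.15), and Dnaja2 165 ± 4.83 and 154 ± 5.23 CPM (log2 fold change 0.10; limma adjusted p = 0.17). Dnaja3, the mitochondrial form, averaged 51.3 ± 2.00 and 51.3 ± 3.01 CPM (limma adjusted p = 0.997). Dnajb2, which also binds ubiquitin, averaged 316 ± 22.7 CPM in libraries labelled knockout and 307 ± 8.58 CPM in libraries labelled wild type (limma adjusted p = 0.68). Of the most abundant Dnajc genes, Dnajc27 averaged 218 ± 15.9 and 207 ± 8.15 CPM (limma adjusted p = 0.41), Dnajc7 211 ± 6.07 and 206 ± 8.88 CPM (limma adjusted p = 0.71) and Dnajc15 206 ± 15.1 and 199 ± 8.14 CPM (limma adjusted p = 0.64) in the same order. Over the 23 Dnajc genes that were not called, log2 fold changes ran from -0.46 to 0.32.

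Other chaperone genes were read from lists. Of 52 co-chaperones and heat shock factors, 4 were lower and none higher by limma (background 8.32% lower and 8.62% higher), with a list median log2 fold change of 0.0038 against -0.01 over all tested genes. Beside Bag3 these were Fkbp5, an Hsp90 co-chaperone (44.4 ± 1.45 CPM in libraries labelled knockout and 49.8 ± 1.74 CPM in libraries labelled wild type), Hsf2bp, which takes part in meiotic recombination (46.1 ± 0.755 and 51.96 ± 1.64 CPM), and Pfdn6, a prefoldin subunit (40.5 ± 1.33 and 46.3 ± 2.40 CPM). Their limma adjusted p were 0.047, 0.029 and 0.033, and the calls were lost in 10, 6 and 7 of 19 alternatives.

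Of 21 genes of folding in the endoplasmic reticulum, 2 were lower and none higher by limma (background 8.32% lower and 8.62% higher). The share lower was near that background. The list median log2 fold change was -0.03, against -0.01 over all tested genes. P4hb, a protein disulfide isomerase, stood at 66.03, 69.9, 70.02 and 67.6 CPM in the libraries labelled knockout, against 81.1, 86.7, 83.5 and 87.1 CPM in those labelled wild type, without overlap (log2 fold change -0.30, SE 0.05; limma adjusted p = 6.4e-04). Edem1, which sends misfolded glycoproteins to degradation, averaged 22.2 ± 0.604 and 25.97 ± 1.08 CPM (limma adjusted p = 0.021), and its call was lost in 3 of 19 alternatives. The heat shock factor Hsf1, named after its values were seen, averaged 36.6 ± 1.26 CPM with the knockout label and 35.5 ± 1.23 CPM with the wild-type label (limma adjusted p = 0.64).

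Set against the promoter windows, limma called 5 of the 19 members with a heat shock element pair (26.3%) and 4 of the 45 without one (8.89%), beside the background of 16.9% over all tested genes. The 5 were Hspa1b, Hspb8, Hspb6, Dnajc5g and Cct8l1, and all were lower. Of the 4 called without a pair, Dnajc17, Dnajc25 and Dnajc28 were lower too, and Hspa12a was higher. The called member Dnajc2 had no window. None of the 4 members with the triple, among which Hspd1 and Hspe1 share the same stretch, was called by limma, edgeR or DESeq2. These counts rest on few genes and were made with the calls known, and the difference was not tested.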

How the data were processed

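The labels' protocols state TRIzol extraction, DNase treatment and TruSeq RNA libraries. Trimmomatic, Subread, featureCounts and GRCm39 are named in the submitters' processing notes, without versions; the sources used here do not give the strand setting or the treatment of reads with several matches. The authors deposited a scaled signal named CPM for 24988 genes (24890 IDs with a symbol), whose column sums ran from 990244 to 1025489. It is therefore not plain CPM, but the planned test on the log scale was kept. Every value (100%) was a whole multiple, to within 0.01, of the step of 1 read in its library, so whole reads were recovered.

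Limma 3.58.1 (R 4.3.3, mean-variance trend) tested log2(CPM + 0.5), requiring a mean of 0.5 CPM or more, with Benjamini-Hochberg adjustment over 22027 genes and a threshold of 0.05, and called 3731. On recovered reads edgeR 4.0.16 called 3694 and DESeq2 1.42.0 called 3961. The fit was also run on simulated reads with the same spread beyond sampling noise for every gene. That run does not show how the fit does with the spread of these libraries. Libraries of a group differed beyond sampling noise (chi-square per degree of freedom 4.63 to 11.7). Members and gene lists were chosen with earlier results of these data known. Genes named are those called, the 3 most abundant of each family and lists for germ cells and heat. Sums with copies (at least 8% of a member's 50-base windows, same strand) were chosen after seeing the data. Sequences are from RefSeq on GRCm38.p6, and exon lengths and overlaps from GENCODE M21 on GRCm38.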

Additional observations from a re-analysis of the deposited data

Results flagged for a closer look

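A library stood apart from the other 3 of its group (by the gap to its neighbour relative to the group's range) in 8 of 104 groups examined for the named genes, where chance alone gives about 1 in 20. Cct8l1 was high in knockout replicate 1, at 83.8 CPM, and Hspb8 was low in knockout replicate 4, at 0.378 CPM. Hspa1b was low in wild-type replicate 3, at 3.47 CPM, and Fkbp5 in wild-type replicate 2, at 47.2 CPM. Among genes that were not called, Cct7 (669 CPM) and Hsp90b1 (511 CPM) were high in knockout replicate 4. Dnaja4 was high in wild-type replicate 4, at 317 CPM, and Dnajc22 was low in wild-type replicate 3, at 1.6 CPM.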

How the results depend on the processing

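The number of called members was 9 to 11 over 20 alternatives, beside 10 in the main test. Calls were lost for Hspb8 with a filter at 2 CPM, where it was not tested, for Cct8l1 without the variance trend and without wild-type replicate 2 or 4, and for Hspa1b with its copy added. Calls were gained for Dnajb8 with quantile normalization, Dnajc22 with library weights and without knockout replicate 1, and Hspa14 and Hspe1 without wild-type replicate 2. The sum of Hspa8 with its copies was also called, lower, and Gm15459 made up the larger part of it. Other chaperone genes numbered 6 calls, but 3 without the variance trend, 2 with the replicate block and 2 to 8 when 1 library was left out (3 without knockout replicate 3, 3 without wild-type replicate 2 and 2 without wild-type replicate 3); the cause was not tested. Libraries of the same number did not deviate together (correlations of -0.03 to 0.04), and only knockout replicate 2 correlated best with its own number. With the replicate block, genes called over all tested genes numbered 3446, and the same 10 members were called.

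Among the 52 named genes, log2 fold changes changed sign for 13, all of them members and none called in the main test. Members that were not named were not examined for this. Hspe1 (0.38) and Hspa8 (0.23) were the 2 that had not been near 0. For both, the changed sign was that of a sum with the reads of other genes. Quantile normalization gave -0.015 for Cct7, -0.0058 for Dnaja3 and -0.025 for Hspa1l, and edgeR gave -0.00038 for Dnaja3. Sums with copies gave -0.075 for Dnaja1, -0.13 for Hspa1a and -0.17 for Hspa8, and the sum of Hspe1 with AC117239.2 gave -0.045. Leaving out 1 library gave -0.011 to 0.018 for Cct7, -0.032 to 0.0504 for Dnaja1, -0.029 to 0.033 for Dnaja3, -0.044 to 0.025 for Dnajb1, -0.0202 to 0.092 for Dnajb7, -0.056 to 0.035 for Hsp90b1, -0.064 to 0.036 for Hspa1l, -0.037 to 0.0012 for Hspa4l, -0.087 to 0.028 for Hspb9 and -0.049 to 0.0068 for Hsph1. Hspb8 rests on 13 to 97 reads per library, which limits its precision.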

Other observations

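Neighbours within 20 kb of the called members were read in GRCm38, and limma called 6 of 32 tested ones, 3 higher and 3 lower, a share near the background of 16.9% of all tested genes. Beside Hspb6, Lin37, a subunit of the DREAM complex, stood at 31.4 ± 5.24 CPM under the knockout label and 16.9 ± 0.228 CPM under the wild-type label (log2 fold change 0.85; limma adjusted p = 5.7e-05). Psenen, a subunit of gamma-secretase, stood at 0.718 ± 0.3396 and 3.48 ± 0.601 CPM in the same order (log2 fold change -1.74; limma adjusted p = 2.2e-05). Tmem50b beside Dnajc28 had 64.03 ± 2.76 CPM with the knockout label and 51.04 ± 0.733 CPM with the wild-type label (log2 fold change 0.32; limma adjusted p = 5.5e-04). Arhgap33, beside Hspb6 like Lin37 and Psenen, had 104 ± 5.13 and 117 ± 2.13 CPM in the same order. It was called lower (log2 fold change -0.18, limma adjusted p = 0.021). Rmdn3, beside Dnajc17, was also called lower, at 14.03 ± 0.596 and 16.9 ± 0.672 CPM in the same order (log2 fold change -0.26, limma adjusted p = 0.017). These genes were named after their values were seen.

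Gm14868, a processed copy that holds 13.3% of the windows of Dnajc5b, had 13.3, 19.1, 17.4 and 19.4 CPM in the libraries labelled knockout, against 3.06, 3.75, 3.89 and 10.5 CPM in those labelled wild type. The log2 fold change was 1.76 (SE 0.27; limma adjusted p = 4.4e-04). It too was named after its values were seen.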
